A study of Homo sapiens with 4 samples.

Results

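The zinc finger genes of chromosome 19 were followed through RNA recovered with an antibody against SF3B6 from MDA-MB-231, a human breast cancer cell line of the triple-negative type. Members were the protein-coding genes of chromosome 19 whose symbol is ZNF followed by a number and at most 1 letter. The rule found 207 of the 18276 genes in the table. No measured value entered the rule itself, but the table lists expressed genes, and every member had at least 1 count over the 4 libraries. The data were 2 libraries of SF3B6-bound RNA (IP 1 and IP 2) and 2 input libraries, all from cells irradiated with ultraviolet light at 400 mJ/cm2, with lysates treated with micrococcal nuclease. Both groups were crosslinked alike and no genetic change is given for either. The only reference was input, so recovery by the antibody without regard to SF3B6 was not measured. The series text calls the libraries of a pair biological replicates. All 4 sample titles name MDA-MB-231, while the cell line entries read MDA-MB-231 for IP 1, MDA-MB-232 for IP 2, MDA-MB-233 for input 1 and MDA-MB-234 for input 2, so the line is given here as in the titles. Of 5 markers listed for the line, AXL, VIM, MSN and CD44 were at 98.8, 33.2, 7.07 and 3.07 mean FPKM in input (reads per kilobase of gene, scaled to library size), while SPARC was at 0.085, with 0 and 2 input counts. Of 9 luminal markers ESR1 and PGR were not listed in the table. KRT18, KRT19, KRT8 and ERBB2 were at 18.3, 17.1, 13.1 and 4.53 FPKM, and GATA3, EPCAM and CDH1 at 1.15, 0.52 and 0.135. Of 7 markers of blood, liver, endothelium and fibroblasts 3 were listed, with 51 input counts in all.

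SF3B6 belongs to the SF3b complex, with which the U2 particle grips an intron's branch point during splicing. Most zinc finger genes of chromosome 19 encode proteins with a row of C2H2 fingers that read DNA, and many carry a KRAB box. The KRAB box binds TRIM28, which brings in the histone methyltransferase SETDB1, and the best known targets of this silencing are transposable elements. The genes arose by repeated local duplication and lie in dense clusters along the chromosome, so that neighbours can be similar in sequence and share reads.

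A feature shared by many members that their names do not use was found in RefSeq's promoter windows, 250 bases before to 50 after each gene's start (GRCh38.p14). Windows were found for 188 of the 207 members. The letters CCGGAAG, the core that ETS factors bind, were present on either strand in 83 of these 188 windows (44.1%). The same letters were found in 36.3% of 182 windows of zinc finger genes elsewhere, in 16.2% of 674 windows of other protein-coding genes of chromosome 19, in 18.6% of 10583 windows of nuclear protein-coding genes and in 10.7% of all 27305 windows. The GC box GGGCGG was present in 67% of member windows against 69.7% of nuclear protein-coding windows, and TATAAA in 2.13% against 5.8%. A further motif, AAGATGG of YY1, was present in 7.98% against 7.42%. These shares are descriptions of letters, not of binding.

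The 250 bases before the start of ZNF653 and of the 3 members with the most counts are shown with GGGCGG and CCGGAAG of either strand in capitals, because ZNF653 was the member called in the gene-wise test and the other genes carry the largest share of the class. They are from RefSeq, 5′ to 3′ on the gene's strand: ZNF653 at chr19:11505840-11506089, minus strand; ZNF587 at chr19:57849609-57849858, plus strand; ZNF865 at chr19:55605397-55605646, plus strand; ZNF787 at chr19:56121296-56121545, minus strand. In ZNF865 a CCGGAAG on the reverse strand runs into a pair of overlapping GC boxes, and in ZNF787 the motif is read on both strands at 1 place. The promoter window of ZNF653 also holds CCGGAAG, but not within the 250 bases shown. The stretch of ZNF587 holds 8 CG pairs, against 18 in ZNF653, 27 in ZNF787 and 32 in ZNF865.
ZNF653: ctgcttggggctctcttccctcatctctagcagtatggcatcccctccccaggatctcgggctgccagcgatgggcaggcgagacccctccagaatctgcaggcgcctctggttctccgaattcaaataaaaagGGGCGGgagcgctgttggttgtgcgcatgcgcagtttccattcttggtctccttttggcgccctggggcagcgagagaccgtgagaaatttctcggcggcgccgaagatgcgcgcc
ZNF587: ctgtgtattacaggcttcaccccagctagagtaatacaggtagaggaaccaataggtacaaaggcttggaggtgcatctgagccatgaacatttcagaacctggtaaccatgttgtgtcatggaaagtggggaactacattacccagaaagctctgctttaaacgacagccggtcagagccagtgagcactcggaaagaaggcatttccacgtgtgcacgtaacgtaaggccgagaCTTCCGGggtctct
ZNF865: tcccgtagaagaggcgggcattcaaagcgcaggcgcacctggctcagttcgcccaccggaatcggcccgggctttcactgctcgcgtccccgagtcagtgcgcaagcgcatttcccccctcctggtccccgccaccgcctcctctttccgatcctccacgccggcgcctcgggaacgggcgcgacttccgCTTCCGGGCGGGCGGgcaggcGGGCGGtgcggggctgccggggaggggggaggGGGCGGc
ZNF787: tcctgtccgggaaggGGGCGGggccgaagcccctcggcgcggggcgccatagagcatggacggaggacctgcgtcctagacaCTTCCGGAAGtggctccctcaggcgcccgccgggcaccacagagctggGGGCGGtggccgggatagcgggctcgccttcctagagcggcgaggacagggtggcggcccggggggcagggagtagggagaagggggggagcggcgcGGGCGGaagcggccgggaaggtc

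Zinc finger messengers of this family were rare in every library. Counts in genes came to 55492 and 30431 in IP 1 and IP 2 and to 317190 and 519836 in input 1 and input 2, of which nuclear protein-coding genes held 38854, 18049, 246521 and 429121. Members summed to 170 and 81 counts in the IP libraries and 929 and 1597 in the inputs. In the authors' FPKM, which can be compared between genes, the median member stood at 0.245 in input, against 0.355 for zinc finger genes of other chromosomes, 0.575 for nuclear protein-coding genes and 1.79 for other protein-coding genes of chromosome 19. Only 32 members reached a mean of 1 FPKM in input. The most abundant per length were ZNF865 (3.63 and 5.53 FPKM in the inputs), ZNF114 (3.91 and 4.69), ZNF787 (3.84 and 4.37), ZNF580 (2.9 and 5.13) and ZNF579 (2.41 and 4.85).

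Of the 207 members, 101 had 0 IP counts, 55 had 1, 31 had 2 or 3 and 20 had 4 or more. At least 1 count was present for 86 members in IP 1 and 56 in IP 2, against 174 and 193 in the inputs. Thinned to the protein-coding counts of IP 1, input 1 and input 2 would each keep 81.2 members on average. Thinned to those of IP 2 they would keep 48.7 and 48.9. Each IP library held slightly more members than these averages. No spread was computed for the averages, so whether the difference exceeds that of random thinning was not tested. Among members with 0 IP counts ZNF324B had the most in input, 11 and 26, and its ratio had an exact interval of 0 to 1.24, so that a lower share in IP was not detectable at this depth. Its close relative ZNF324 had 4 and 1 IP counts and 8 and 34 in input.

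As a class the zinc finger genes held a slightly larger part of nuclear protein-coding counts in IP than in input. The share was 0.438% in IP 1 (exact 95% interval 0.374 to 0.508) and 0.449% in IP 2 (0.357 to 0.557), against 0.377% in input 1 (0.353 to 0.402) and 0.372% in input 2 (0.354 to 0.391). Both IP libraries lay above both inputs, while the interval of IP 1 reached down to the value of input 1 and that of IP 2 to both inputs. Group means were 0.443% ± 0.00795 and 0.374% ± 0.00331 (SD, n = 2 libraries each), a 1.18-fold ratio (log2 0.24). The exact permutation test over libraries, two-sided, gave p = 0.333, the smallest p that 2 against 2 libraries allow. Pooled over libraries the ratio was 1.18 with an interval of 1.03 to 1.34, which covers counting error only.

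The direction depended on what the counts were set against. Nuclear protein-coding genes made up 70% and 59.3% of IP counts but 77.7% and 82.5% of input counts. Against all counts in genes the log2 ratio of the class was -0.068, and against the library totals behind the FPKM values it was -1.46, where the median of all tested genes was -1.65. Relative to other messengers the class lay higher in IP, and relative to all counted RNA it did not.

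**Figure D1:**
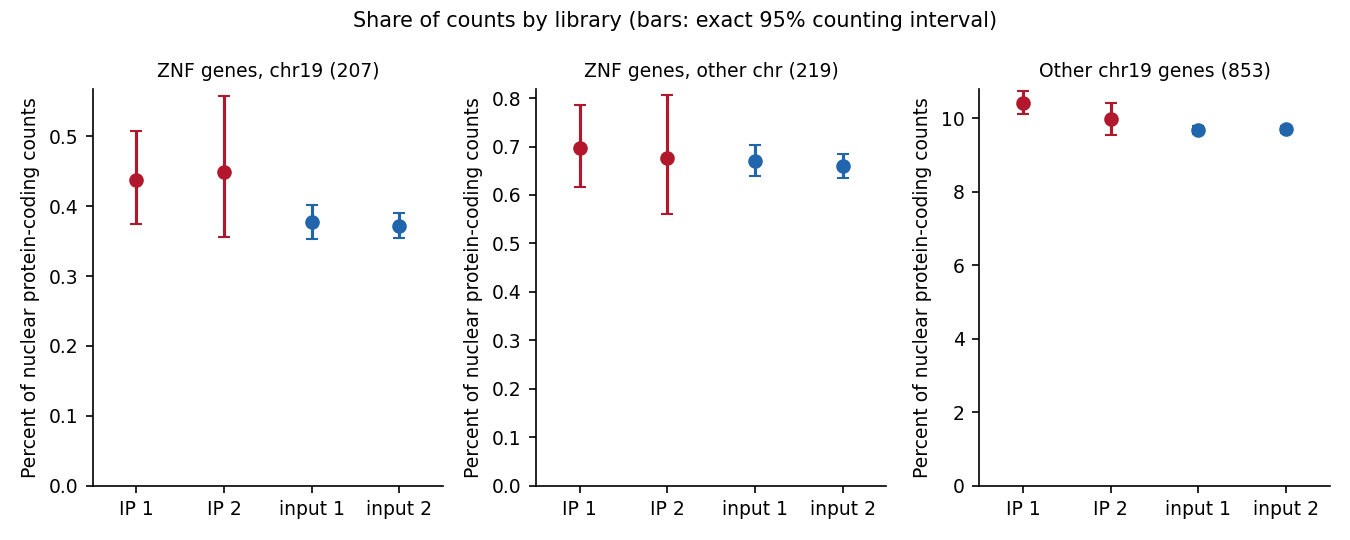
Percent of nuclear protein-coding counts (y axis, from 0) in each of the 4 libraries (x axis; red IP, blue input) for 207 ZNF genes of chromosome 19, 219 ZNF genes of other chromosomes and 853 other protein-coding genes of chromosome 19, with bars for the exact 95% counting interval. The chromosome 19 ZNF genes sit at 0.438% and 0.449% in IP against 0.377% and 0.372% in input, with overlapping intervals.

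Zinc finger genes of other chromosomes lay closer to input. The 219 such genes held 0.697% and 0.676% of nuclear protein-coding counts in IP and 0.671% and 0.66% in input, a pooled ratio of 1.04 (interval 0.936 to 1.15). Counts of the chromosome 19 members were 62.7% and 66.4% of the counts of these genes in IP, against 56.2% and 56.4% in input. Both IP libraries were above both inputs, the means differed 1.15-fold, and the exact permutation p was 0.333, again the smallest possible. Against the 853 other protein-coding genes of the chromosome, the members' counts were 4.2% and 4.5% in IP and 3.89% and 3.84% in input, 1.12-fold, with the same p of 0.333. Those neighbours were themselves slightly above input, at 10.4% and 9.98% against 9.69% and 9.7% (pooled ratio 1.06, interval 1.03 to 1.09). A group of 12 chromosome 19 zinc finger genes with other names, among them ZBTB7A and ZSCAN18 overlapped between groups, at 31 and 9 IP counts against 170 and 262 in input (ratio 1.1, interval 0.774 to 1.52).

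At the level of single genes, 9 members had at least 50 counts over the 4 libraries, the minimum set here for calling a gene well counted. None of the 9 passed edgeR's quasi-likelihood test across the 3668 genes tested, with adjusted p from 0.339 to 0.975, and none passed at an unadjusted p under 0.05. Fold changes were positive for 6 of the 9 and their median was 0.14 on the log2 scale, against -0.06 over all tested genes. Both IP libraries lay above both inputs for 4 of the 9 and below them for 0. The background over the 3668 genes was 20.9% above and 28.5% below. Of the 4, ZNF579 was under the expression filter in input 1, so its IP libraries helped to bring it into the test. The minimum of 50 counts also takes in IP counts. The 9 genes share the same 4 libraries and are too few to set apart from that background.

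ZNF274, a KRAB protein known for bringing SETDB1 to zinc finger genes themselves, was the well counted member with the largest difference. IP 1 and IP 2 held 9 and 2 counts and the inputs 22 and 38, or 198 and 87.1 CPM (counts scaled to library size after TMM) against 77.4 and 77.5. Both IP libraries were above both inputs, but IP 2 only narrowly, and the log2 fold change of 1.05 ± 0.54 (SE) did not pass (edgeR adjusted p = 0.339). It rested on IP 1, since without that library it was -0.048, and with the FPKM totals it was -0.57. ZNF787 had 8 and 3 IP counts against 30 and 41 (log2 fold change 0.81 ± 0.52, edgeR adjusted p = 0.477). ZNF444, which carries a SCAN box, had 6 and 3 against 36 and 35 (0.52 ± 0.59, 0.76), and ZNF579 had 6 and 2 against 17 and 41 (0.64 ± 0.60, 0.664). These 4 genes were those whose IP libraries both lay above the inputs. Without IP 1 the log2 fold change of ZNF579 was 0.0026, and those of ZNF787 and ZNF444 were both 0.29.

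The remaining well counted genes overlapped between groups. ZNF587, the member with the most counts, had 5 and 3 IP counts against 41 and 45 (log2 fold change 0.07 ± 0.58). ZNF865 had 6 and 2 against 29 and 53 (0.14 ± 0.56). The sign turned for ZNF587 without IP 2 (-0.11) and for ZNF865 without IP 1 (-0.50). On the other side of zero, ZNF114 had 2 and 2 IP counts against 25 and 36 (-0.42 ± 0.74), while ZNF580 and ZNF264 each had 3 and 0. Input counts of ZNF580 were 16 and 34 and its pooled IP over input ratio was 0.712 (exact interval 0.142 to 2.21). Those of ZNF264 were 21 and 28, with a ratio of 0.727 (0.145 to 2.25). Both intervals reach from well under to well over 1. With the FPKM totals, under which the median of all tested genes was -1.65, ZNF114, ZNF264 and ZNF580 were called lower, at log2 fold changes of -2.00, -2.12 and -2.13. That fit called 57.1% of all tested genes lower and 3 of the 14 tested members. Limma on log2(FPKM + 1) called 62% of all genes and 4 members lower, and on log2(FPKM + 0.1) 45.7% and 3 members. ZNF324 (ratio 1.41, interval 0.436 to 3.57) and ZNF544 (2 IP and 45 input counts, 0.528, 0.062 to 2.02) followed in number of counts, with intervals on both sides of 1.

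**Figure D2:**
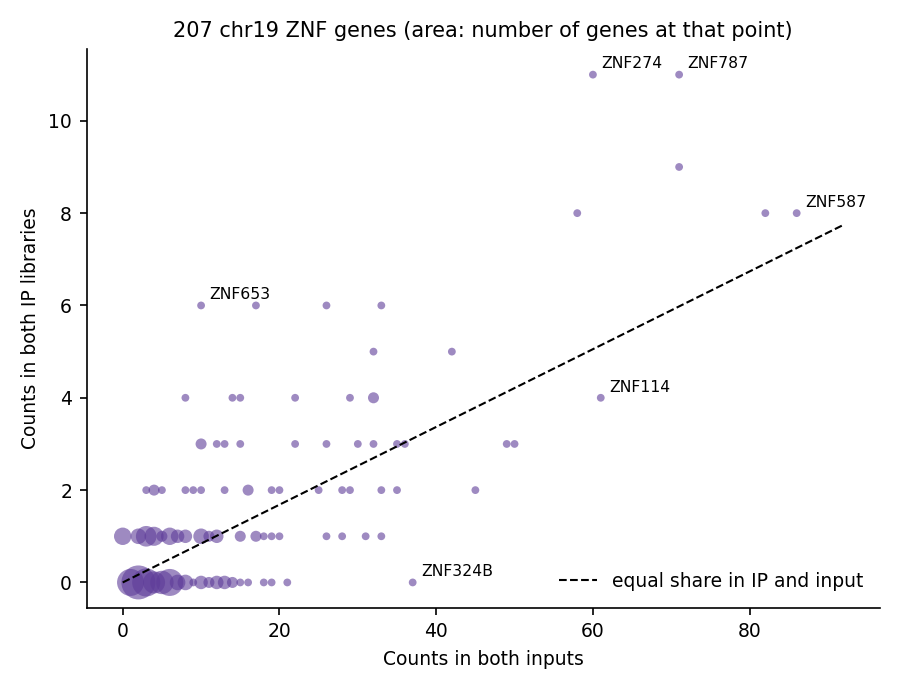
Counts summed over both IP libraries (y axis) against counts summed over both inputs (x axis) for the 207 chromosome 19 ZNF genes, with the area of a point giving the number of genes there and a dashed line where the share of nuclear protein-coding counts is equal. Most genes crowd at 0 or 1 IP counts, and ZNF653 stands at 6 IP and 10 input counts, well above the line.

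ZNF653, a zinc finger gene at 11483429 to 11505839 on chromosome 19 (GRCh38), was the 1 member that passed. The IP libraries held 3 counts each and the inputs 3 and 7, or 66.1 and 131 CPM against 10.6 and 14.3. Every IP value was above every input value, and the pooled ratio of shares was 7.12 (exact interval 2.13 to 21.6). The log2 fold change was 2.72 ± 0.74 (SE, edgeR adjusted p = 0.0334). The call rests on 6 IP counts. ZNF653 entered the test only through its IP libraries, since its input counts alone were under the expression filter, and a gene that enters in that way had to differ between the groups.

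Over all tested genes, 2.7% were called higher and 1.36% lower in IP. Of the 14 members that passed the filter, 1 was called higher and 0 lower, which is too few genes to set apart from that background. At an unadjusted p under 0.05, 15.6% of all tested genes and 2 of the 14 members passed with edgeR, and with DESeq2 7.5% and also 2. The second was ZNF135, with 4 and 2 IP counts against 9 and 8 (1.95 ± 0.74, edgeR adjusted p = 0.15). ZNF135 was singled out after its values had been seen, as were ZNF331 (4 and 2 against 10 and 16) and ZNF611 (4 and 2 against 16 and 17), at log2 fold changes of 1.37 and 1.02 and adjusted p of 0.339 and 0.521. Like ZNF653 these entered the test through the IP libraries alone. ZNF579 passed the filter in both IP libraries and in input 2 but not in input 1. The other 193 members had too few counts to be tested.

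The ZNF653 call was lost under other scalings. Its log2 fold change was 2.48 with library totals (adjusted p = 0.0587), 2.59 with upper quartile scaling (0.0539) and 1.15 with the totals behind the FPKM values (0.168). With no filter on low counts it was 2.24 (0.281), DESeq2 gave no adjusted p, and with any 1 of the 4 libraries left out it had too few counts to be tested.

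**Figure D3:**
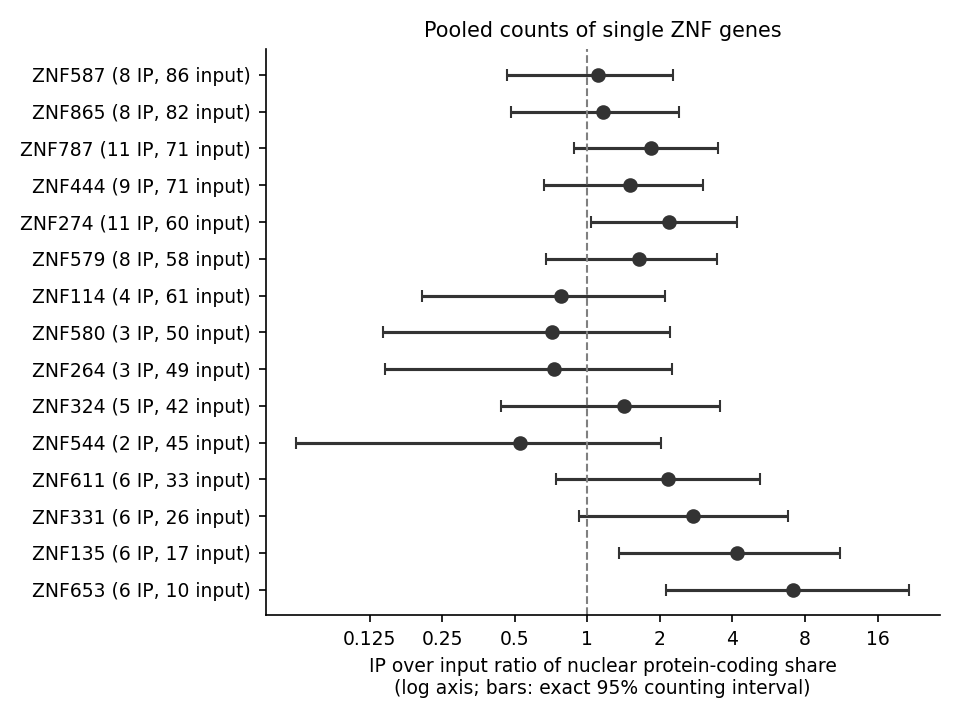
IP over input ratio of the nuclear protein-coding share (x axis, log scale) for the 11 members with the most counts and for ZNF611, ZNF331, ZNF135 and ZNF653, each with its exact 95% counting interval and its pooled counts. The intervals of ZNF274, ZNF135 and ZNF653 lie above 1, the last at 7.12, and those of the other genes reach both sides of 1.

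Along the chromosome the members fell into 8 clusters of at least 10 genes with gaps under 500 kb, and 26 lay outside them. The cluster with the highest ratio was that from 19.7 to 21.9 Mb, 21 genes that include ZNF431, ZNF714, ZNF506 and ZNF493. Its IP libraries held 14 and 12 counts and its inputs 63 and 128, a pooled ratio of 1.62 (interval 1.03 to 2.44). ZNF431 led it with 1 and 4 IP counts against 9 and 23.

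The cluster from 55.5 to 56.6 Mb held 5 of the 9 well counted genes (ZNF865, ZNF787, ZNF444, ZNF579 and ZNF580). Its 12 genes had 39 and 13 IP counts against 160 and 273, a ratio of 1.43 (1.05 to 1.9). The largest cluster, 42 genes from 57.2 to 58.5 Mb with ZNF587, ZNF274, ZNF264, ZNF544 and ZNF324, had 42 and 19 against 277 and 467. Its ratio was 0.974 (0.737 to 1.26), and both IP shares lay below both inputs, at 0.108% and 0.105% against 0.112% and 0.109%. The next cluster by counts, from 51.6 to 53.6 Mb with ZNF611 and ZNF331, was at 1.34 (0.909 to 1.91). The other clusters ran from 0.815 to 1.26 with 7 to 18 IP counts each, and genes outside clusters were at 0.993 (0.632 to 1.49). No test of differences between clusters was made, and all their intervals overlap.

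Members also differed by whether their RefSeq span overlaps that of another listed gene, a contrast picked out after its values had been seen. The 37 that overlap had 18 and 7 IP counts against 156 and 274, a ratio of 0.69 (0.442 to 1.03), and both IP shares were below both inputs. The other 170 had 152 and 74 against 773 and 1323, a ratio of 1.28 (1.11 to 1.47), and both IP shares were above both inputs. Counts of overlapping members were 11.8% and 9.46% of those of the others in IP, against 20.2% and 20.7% in input, and with 2 against 2 libraries no exact permutation test of this contrast could go below p = 0.333. The same quotient for other protein-coding genes of chromosome 19 was 39.5% and 37.5% in IP and 39.2% and 39.2% in input, and for zinc finger genes of other chromosomes 45.7% and 29.8% against 36% and 36.2%. Overlapping members included ZNF114, ZNF580, ZNF544 and ZNF324B. Their partners were protein-coding for 27 and lncRNA for 11. Overlap was taken from whole gene spans, introns included. Without a stated strand setting it is not known whether reads from bases shared by such pairs were told apart. What this did to the contrast was not tested.

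**Figure D4:**
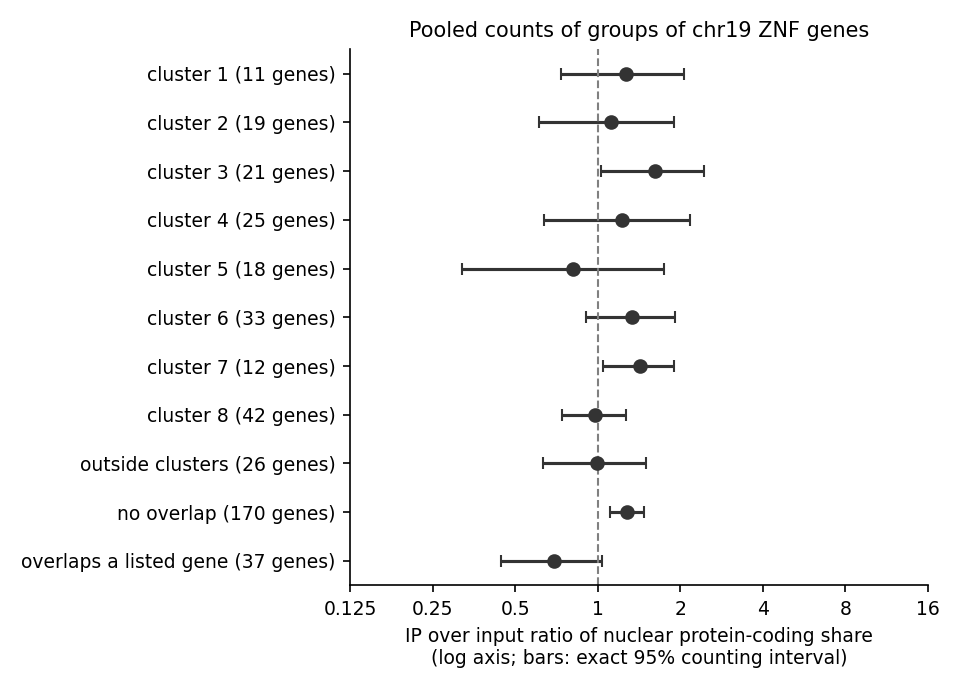
IP over input ratio of the nuclear protein-coding share (x axis, log scale) for the 8 clusters numbered along the chromosome, for members outside clusters, and for members that do or do not overlap another listed gene, with exact 95% counting intervals. The 170 members without overlap sit at 1.28 and the 37 with overlap at 0.69.

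Groups made by other properties of the genes lay closer together. Members with a span above the median of 23.2 kb were at a ratio of 1.23 (1.01 to 1.48) and the rest at 1.14 (0.943 to 1.36). Members whose promoter window holds CCGGAAG were at 1.25 (1.04 to 1.49) and those without it at 1.12 (0.901 to 1.37). Across the 28 members with at least 30 counts, Spearman's rho of the pooled ratio was 0.0271 with gene span and, over 27 of them, 0.114 with promoter GC content. These points share the same 4 libraries, and at 0 to 11 IP counts a gene such correlations describe little.

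The partners of KRAB zinc fingers were better counted. TRIM28, the KRAB corepressor, had 41 and 16 IP counts against 215 and 358. Its log2 fold change of 0.16 ± 0.22 did not pass (edgeR adjusted p = 0.813) and was below 0 with library totals (-0.09) and without IP 1 (-0.31). With the FPKM totals TRIM28 was called lower (-1.46, adjusted p = 0.0111), as it was with limma on log2(FPKM + 1) (-1.43, 0.00218) but not on log2(FPKM + 0.1) (0.0572). Of 24 genes of this silencing pathway all were listed and 12 were tested, 7 of them with log2 fold changes above 0. The median of the 12 was 0.20, with -0.06 over all tested genes. Of the 7, CBX3 (3 and 3 IP counts against 14 and 15) entered the test through its IP libraries alone. MORC2 (5 and 3 against 17 and 40) was under the filter in input 1. Selection by the filter thus raised the median and the number above 0, and neither is read as a trait of the list. The background was 2.7% called higher and 1.36% lower, and of the 12, 0 were called lower and 1 was called higher. That gene was MBD3, a subunit of the NuRD deacetylase complex, with 48 and 19 IP counts against 159 and 264 (0.83 ± 0.21, adjusted p = 0.0175). MBD3 did not pass with library totals (0.162), upper quartile scaling (0.0654), a replicate block (0.0822) or without IP 1 (0.682), input 1 (0.111) or input 2 (0.23), and was at -0.80 with the FPKM totals. SETDB1 itself had 1 count in each IP library against 6 and 10, too few to test. CBX5, which encodes the heterochromatin protein HP1 alpha, had 0 IP counts against 11 and 20 in input. ZNF324B, with more input counts and also 0 in IP, had an interval reaching above 1, so a lower share of CBX5 was not detectable either. CHD4, HDAC2, PPHLN1 and SUV39H2 had 0 IP counts too.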

How the data were processed

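The authors deposited read counts per gene, not normalized, with a matching FPKM table. The submitters' processing notes list HISAT2, HOMER and hg38 but give neither roles nor versions. The sources used here do not say how reads were counted by strand or when multi-mapped. Members and lists were chosen with earlier results of these data known. The 4 promoter motifs and the groupings of members by motif, span, GC content, counts and overlap, 21 groups with the clusters, were set after values had been seen and carry no test. A split by FPKM level was left out because its limit used IP values.

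Counts were tested with edgeR 4.0.16 (quasi-likelihood, TMM, default filter, group as the one term, Benjamini-Hochberg at 0.05) across all genes, in R 4.3.3. The filter, 53.7 CPM in 2 libraries, kept 3668 genes. Alternatives used limma 3.58.1 and DESeq2 1.42.0. The edgeR fit was tested on simulated data with 200 genes changed. Among changed genes kept by the filter it recovered 96% of 4-fold and 36.7% of 2-fold rises. For falls to 0.25 and to 0.5 of input it recovered 47.5% and 21.1%. Of the genes called, 2.11% were false. The changed genes were drawn from all 3668 tested genes, of which 14 were members, so these rates do not describe the class. SE was computed from fold change and F. Class sums were compared as shares of nuclear protein-coding counts with an exact permutation test. Intervals are exact (Clopper-Pearson, conditional for ratios) at 95%, and cover counting error only. They treat each read as 1 molecule, and no molecular identifiers were used here to check that. Library totals behind FPKM were recovered from count over FPKM (0.297, 0.197, 0.833 and 1 relative to input 2). Replicates differed beyond counting noise (chi-square per degree of freedom 2.49 for IP, 1.5 for input), so each library is 1 replicate.

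Named genes were ZNF653, members past the threshold, the 10 with the most counts, the 5 highest and 5 lowest well counted ones, the 5 with the highest input FPKM, TRIM28 and list genes past the threshold. SETDB1, CBX3, MORC2 and the list genes with 0 IP counts were named outside this rule. All 207 members matched RefSeq (GRCh38.p14) by symbol. KRAB and SCAN boxes and finger numbers, planned as groups, were not analysed here.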

Additional observations from a re-analysis of the deposited data

How the results depend on the processing

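The class ratio of 0.24 on the log2 scale lay between 0.22 and 0.26 without each library in turn, and was 0.24 with a replicate block (0.22 within replicate 1 and 0.27 within replicate 2). It reversed to -0.068 with all counts in genes and to -1.46 with the FPKM totals as the denominator. It was 0.16 with the TMM library size and 0.37 over the 170 members without overlap. With FPKM in place of counts it was 0.16, as a share and not as a raw sum of FPKM. In settings added after the data had been seen it ran from 0.21 without ZNF653 to 0.26 without ZNF324B, leaving out each member in turn. It was 0.33 without the 2 clusters with the most counts and 0.081 over the 193 untested members. Of the 14 tested members that this last setting leaves out, 5 passed the filter in both IP libraries but not in both inputs. Its value is lowered by that selection. Against neighbours the class ratio lay between 0.12 and 0.22, and against zinc finger genes elsewhere between 0.16 and 0.24, without each library in turn.

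The count of members called, 1 in the edgeR fit and with a replicate block, was 0 with library totals, upper quartile scaling, no filter, at least 20 counts in 2 libraries and DESeq2 (no adjusted p for 11 of 14), and 0 without each IP library in turn. Without input 1 or input 2 no member passed the filter. With the FPKM totals and with limma on log2(FPKM + 0.1) 3 members were called, and with limma on log2(FPKM + 1) 4, all lower, against 57.1%, 45.7% and 62% of all genes called lower; there the median of all genes was -1.65, -1.66 and -1.05. MBD3 reversed in these 3 fits, to -0.80, -0.84 and -0.75. Deviations of same-numbered libraries correlated at 0.000443. At such low IP counts counting noise could hide a shared preparation, so whether equal numbers mark pairs is not known. No member reached 100 counts, so that minimum gave no value.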
